A study of Mus musculus with 768 samples.

Results

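Intermediate Schwann cells that carried much Cdkn1c mRNA were compared with intermediate Schwann cells that carried little of it. Cdkn1c encodes p57Kip2, an inhibitor of cyclin-dependent kinases. Wells were chosen by measured values. Each held at least 1500 detected genes, was not one of the 4 corner wells of a plate, and was not cycling, where cycling means 5 or more reads in each of 3 or more of Mki67, Top2a, Cdk1, Birc5, Ccnb1, Ccna2, Aurkb, Ube2c, Tpx2 and Cenpf. Each also had at least 10 CPM (reads of the gene scaled to 1000000 reads of the well) of Ncmap, a gene of myelinating Schwann cells, and less than 30000 CPM of Pmp22, a compact myelin gene. Of 768 wells, 655 passed the quality conditions and 149 were intermediate by these limits, 79 in plate 1 and 70 in plate 2. Within each plate these were divided into terciles (3 groups of about equal size) by Cdkn1c CPM, which gave 51 Cdkn1c-high wells (27 and 24), 51 Cdkn1c-low wells (27 and 24) and 47 middle wells (25 and 22).

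The cells were taken at postnatal day 5 from the sciatic nerve of mouse pups that carried a beta-actin dsRed transgene and an eYFP reporter switched on by P0Cre recombination, which labels the Schwann cell lineage. Single eYFP-positive cells were sorted into 2 plates with 384 wells each, and their libraries were made by Smart-Seq2, which covers whole transcripts and uses no molecular identifiers. Each plate held a pool of male and female pups in a 1:1 ratio and is 1 biological replicate, so the reads of each side were summed per plate and every comparison rests on n = 2 plates. The Cdkn1c-high sums held 16953831 and 13509660 reads, and the Cdkn1c-low sums 12678189 and 16359878.

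p57Kip2 is best known for binding cyclin and cyclin-dependent kinase complexes and holding cells out of the cell cycle. The protein also binds LIM kinases, which act on the actin filament regulator cofilin, and in cultured Schwann cells it is known as a brake on differentiation. The gene is imprinted and expressed from the maternal allele. In nerve at this age, Schwann cells move from the pro-myelinating stage, marked by Pou3f1 (Oct6), to myelination, a step that needs Egr2, a large supply of cholesterol and a rebuilt actin skeleton.

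Cdkn1c (ENSMUSG00000037664, GRCm38 chr7:143458339-143461050, minus strand) chose the wells, so its levels are a description. In the Cdkn1c-low wells of plate 1 it ranged from 0 to 189 CPM with a median of 5.13, and 12 of 27 wells held no read. In plate 2 the low wells ranged from 0 to 267 CPM with a median of 1.71, and 11 of 24 held no read. The high wells ranged from 1858 to 23344 CPM in plate 1, median 4905, and from 1690 to 17035 CPM in plate 2, median 3588. The terciles met without a gap. The highest low well of plate 1 had 189 CPM and the lowest middle well 203 CPM, the highest middle well had 1578 CPM and the lowest high well 1858 CPM. In plate 2 the same borders lay between 267 and 295 CPM and between 1651 and 1690 CPM. The intermediate wells nearest the Ncmap limit had 11.4 CPM in plate 1 and 52.6 in plate 2, and the nearest wells outside it 7.60 and 7.92. At the Pmp22 limit the nearest wells inside had 29330 and 29896 CPM and those outside 31333 and 30776.

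**Figure D1:**
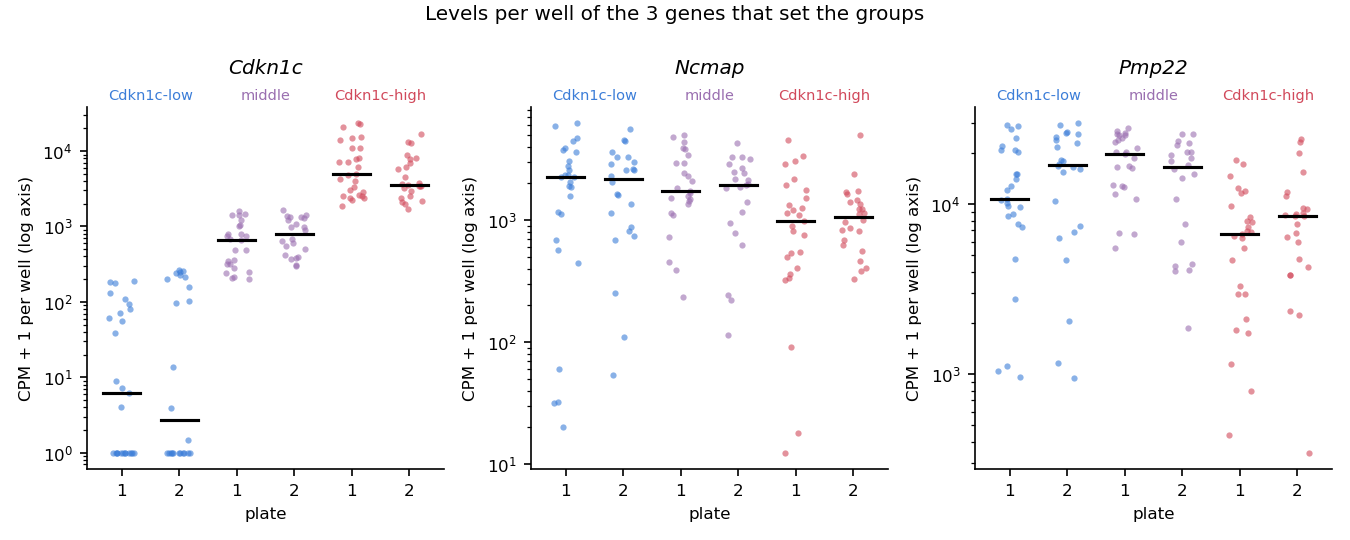
CPM + 1 per well (log axis) of Cdkn1c, Ncmap and Pmp22, the genes that set the groups, in the low, middle and high terciles of each plate, with 1 point per well and a black line at the median. The Cdkn1c terciles do not overlap by construction. The Pmp22 medians of the Cdkn1c-high wells (6693 and 8531 CPM) lie below those of the low wells (10664 and 16903 CPM). Those of the middle wells are 19745 and 16575 CPM, above the low wells in plate 1 only.

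The sides also differed in the other genes of the rule and in quantities of the libraries. Median Ncmap was 2247 and 2179 CPM in the low wells and 985 and 1053 CPM in the high wells. Over the wells of a plate, Spearman's rho of Cdkn1c with Pmp22 was -0.405 and -0.332 in plates 1 and 2. The low wells were mixed in Pmp22, from 955 to 29330 CPM in plate 1 and from 946 to 29896 CPM in plate 2. The median number of genes per well was 3019 and 3560 on the low side and 3454 and 3789 on the high side. Wells of plate columns 8 and 16, which 1 alternative leaves out, made up 8 of the 51 low and 3 of the 51 high wells.

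The wells bore out the label of Schwann cells. At least 3 of 7 general Schwann cell markers, Sox10, S100b, Erbb3 and Cdh19 among them, reached 5 reads in 89 of the 102 high and low wells. No well reached that for markers of fibroblast-like, endothelial, immune, perineurial or red blood cells, of pericytes or vascular smooth muscle, of neurons or of skeletal muscle, which allows a share of up to 2.94% of wells for each by counting error. The summed level of these Schwann cell markers was 4261 and 5333 CPM in low and 2237 and 2098 CPM in high wells, and all 7 had a negative log2 change, with a median of -1.30. Of the 7, 1 passed the test described below, against 0.582% of all genes. The summed fibroblast-like markers were at 263 and 115 CPM in low and 635 and 560 CPM in high wells, most of it Col1a1, while Pdgfra and Dpt were at 0 reads in all 4 sums.

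Which other mRNAs went with Cdkn1c was asked of 10832 genes with edgeR's quasi-likelihood test on the summed reads (Benjamini-Hochberg adjustment over all genes, threshold 0.05). In all, 63 genes passed, or 0.582% of those tested, 14 higher (0.129%) and 49 lower (0.452%) in Cdkn1c-high wells. The split was 25 higher and 42 lower with scaling by total reads alone and 285 and 416 in DESeq2. One of the 14 is Cdkn1c itself. The 62 others had the same direction in both plates, and their high and low sums did not overlap, which was so for 38.9% of all genes tested. The test picked these 62 genes on the same sums, so this is no separate evidence for them. The median log2 change of all genes was -0.03. Of the 62, 45 reached a mean of 50 CPM over the 4 sums, 9 of them higher and 36 lower. The middle wells took no part in the contrast, and for 34 of these 45 genes the middle sum lay between the low and the high sum in both plates. These genes were picked for low and high sums that lie apart, which makes this likely. The share over all genes was not taken, so the count shows no graded relation with Cdkn1c. The fit drew its spread from 10 sums, with Ncmap-negative and Pmp22-high wells included, and with the 4 high and low sums alone, or with the middle sums added to them, 1 gene passed, Cdkn1c. DESeq2 called 701 genes (6.47%), all 62 among them, and the fit with the plate as replicate block called 36, of which 34 were among the 62. Without the Cdkn1c-high sum of plate 1 the count was 6, without the low sum of plate 1 it was 40, and without the low sum of plate 2 it was 364 (188 higher and 176 lower). With terciles taken within 2 strata of Ncmap, of detected genes or of total reads the counts were 21, 86 and 55, and without plate columns 8 and 16 it was 26. Of the 62 genes, 13, 39, 41 and 19 passed in these 4 settings. Another 17 of the 62 were below 50 CPM, and 6 of these had no read in either high sum.

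Of 9 genes that the naming rule gave as higher with Cdkn1c, 8 are described, of which Serpine2, Egfl8 and Fbln5 encode secreted proteins. Serpine2 (protease nexin-1, a secreted inhibitor of thrombin and other serine proteases; chr1:79794197-79861180) had 861 and 744 CPM in low, 1530 and 1468 in middle and 2275 and 2414 in high wells of plates 1 and 2. All high sums lay above all low sums, and Serpine2 was detected in every high well. It was 2.66-fold higher (log2 change 1.41 ± 0.23 SE, edgeR adjusted p = 0.0364). Egfl8, which encodes an EGF-like domain protein (chr17:34613349-34615971), had 2017 and 2382 CPM in low and 5418 and 5609 CPM in high wells, with a log2 change of 1.20 ± 0.14 (adjusted p = 0.00633). Fbln5, which encodes fibulin-5 of elastic fibres, had 71.9 and 31.7 CPM in low and 329 and 263 CPM in high wells, a log2 change of 2.36 ± 0.41 (adjusted p = 0.0456).

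The others were Adk, Akr1b3, Pdia6, Tnfaip8l1 and Mest. Adk, adenosine kinase, had 18.7 and 16 CPM in low and 203 and 153 CPM in high wells. That was 9.34-fold more (log2 change 3.22 ± 0.40, edgeR adjusted p = 0.00964), with reads in 12 of 51 low and 29 of 51 high wells. In plate 1, a single well gave 61.2% of the Adk reads of the low sum and another 46.9% of those of the high sum. Without plate columns 8 and 16 Adk did not pass (log2 change 2.74, edgeR adjusted p = 0.0532). Akr1b3, aldose reductase, had 29.7 and 38.1 against 147 and 154 CPM. It had reads in 4 of 27 and 6 of 24 low wells, and 1 well gave 69.7% of the low reads of plate 1. Pdia6, a disulfide isomerase of the endoplasmic reticulum, had 206 and 326 against 645 and 791 CPM, and Tnfaip8l1 had 131 and 91.3 against 350 and 421 CPM. The log2 changes of these last 3 genes were between 1.32 and 2.04, with adjusted p from 0.0266 to 0.0477. Mest, an imprinted gene expressed from the paternal allele (chr6:30723547-30748465), had the largest rise of the named genes. It had 5.68 and 11.4 CPM in low and 161 and 79.6 CPM in high wells, a log2 change of 3.71 ± 0.65 (adjusted p = 0.0456), with reads in 8 of 51 low and 27 of 51 high wells. In the low sums of plates 1 and 2, 1 well each gave 61.1% and 59.4% of the Mest reads. With the replicate block Mest, Pdia6 and Tnfaip8l1 no longer passed (adjusted p = 0.0512 to 0.0712).

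**Figure D2:**
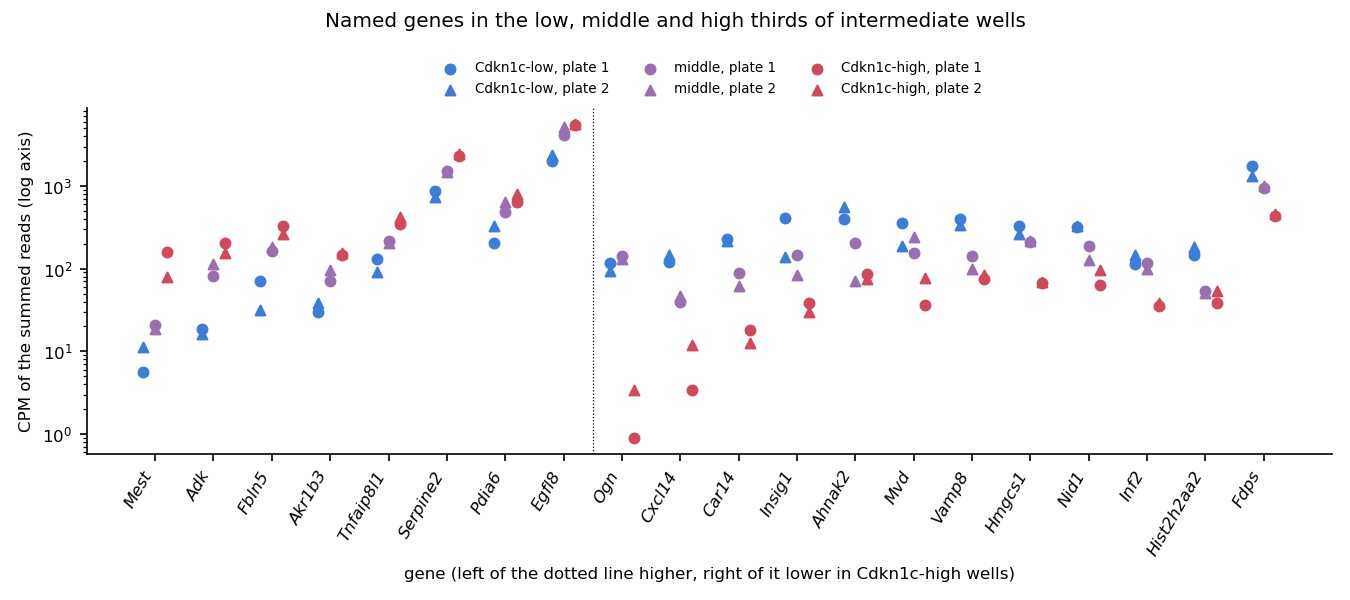
CPM of the summed reads (log axis) of 8 genes higher and 12 genes lower in Cdkn1c-high wells by the naming rule, in low, middle and high wells of plate 1 (circles) and plate 2 (triangles). The red high sums lie above the blue low sums for the first 8 genes and below them for the other 12.

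Of the 12 named lower genes, Ogn, Cxcl14 and Car14 had reads in few Cdkn1c-high wells, 8, 6 and 6 of 51. Ogn, osteoglycin, a small leucine-rich proteoglycan of the extracellular matrix, had 117 and 92.7 CPM in low, 144 and 129 in middle and 0.885 and 3.40 CPM in high wells. Its log2 change of -5.77 ± 0.57 (adjusted p = 0.00376) was the steepest of the named genes, with reads in 29 of 51 low wells. With terciles taken within 2 strata split at the median of Pmp22, it was -1.77 and did not pass (adjusted p = 0.117). The middle sums lay above the low sums in both plates. Cxcl14, a chemokine, had 121 and 148 CPM in low and 3.42 and 12 CPM in high wells (log2 change -4.25 ± 0.73, adjusted p = 0.0446). Car14, a membrane-bound carbonic anhydrase, had 227 and 219 CPM in low, 87.8 and 62.5 in middle and 18.3 and 12.4 CPM in high wells (log2 change -3.98 ± 0.39, adjusted p = 0.00376). In the high wells of plate 2, 1 well gave 99.4% of the Car14 reads. The other named genes of that side outside lipid synthesis were Ahnak2, the vesicle SNARE Vamp8, the basal lamina linker Nid1, the actin nucleator Inf2 and the histone gene Hist2h2aa2, with log2 changes from -2.66 to -1.94. Hist2h2aa2 has near-identical copies that can share its reads. With the replicate block Cxcl14, Hist2h2aa2 and Mvd no longer passed (adjusted p = 0.0684 to 0.0712).

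Of the gene lists, cholesterol and fatty acid synthesis held the most genes that passed, all of them lower. Hmgcs1, the cytosolic synthase that makes HMG-CoA, had 332 and 259 CPM in low, 212 and 215 in middle and 67.2 and 69.3 CPM in high wells, 4.76-fold less (log2 change -2.25 ± 0.24, adjusted p = 0.00482). Fdps, farnesyl diphosphate synthase, had 1730 and 1308 against 431 and 461 CPM (-1.91 ± 0.21, adjusted p = 0.00482), and a gene model that overlaps it, Gm43738, changed alike. For Hmgcs1 and Fdps the low and high sums lay apart and the middle sums between them. The medians per well did not all run in that order. For Fdps they were 476 and 479 CPM in low, 820 and 864 in middle and 166 and 324 in high wells. For Hmgcs1 they were 58.7 and 99.2 CPM in low, 170 and 58.6 in middle and 1.46 and 2.77 in high wells. Insig1, which holds the sterol-sensing SREBP complex in the endoplasmic reticulum, had 409 and 140 against 38.5 and 29.8 CPM (-3.17 ± 0.54), Mvd 358 and 189 against 36.2 and 76.1 CPM (-2.44 ± 0.44), and Msmo1 362 and 476 against 124 and 193 CPM (-1.52 ± 0.23). The stearoyl-CoA desaturase Scd2 fell from 515 and 673 to 178 and 209 CPM (-1.74 ± 0.21). In the low sum of plate 1, a single well gave 54.4% of the Mvd reads, 54.1% of the Msmo1 reads, 39.1% of the Fdps reads and 32.3% of the Insig1 reads. Without that sum Insig1 was at -2.07 (adjusted p = 0.0868) and Mvd at -1.79 (adjusted p = 0.128), and neither passed, while Hmgcs1, Fdps, Msmo1 and Scd2 still did. Without the high sum of plate 1 none of these 6 genes passed (adjusted p = 0.0719 to 0.187).

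Of the 29 genes of cholesterol and fatty acid synthesis, all tested, 7 passed as lower and 0 as higher, against 0.452% and 0.129% of all genes. Their median log2 change was -1.66 against -0.03 for all genes, and 28 of 29 changes were negative. Of the 22 genes of cholesterol synthesis and uptake, 22 changes were negative with a median of -1.78. The 7 fatty acid genes had a median of -0.76, and the very-long-chain elongase Elovl1 stood at 1841 and 1558 CPM in low and 1822 and 1779 CPM in high wells. Srebf2, which encodes the main transcriptional driver of cholesterol synthesis, had 98.7 and 44.5 against 35.2 and 36.0 CPM and did not pass (-1.17 ± 0.49, adjusted p = 0.356).

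Pmp22 was lower on the high side too. When the wells of each plate were first split at the median of Pmp22 and terciles taken within each side (Pmp22 strata), 0 of the 29 genes passed at 0.05, where 0.213% of all genes did, and their median log2 change was -1.06, with 26 of 29 negative. Hmgcs1 was at -1.24 there (adjusted p = 0.0786) and Mvd at -1.53 (adjusted p = 0.240). Of the 62 genes, 14 still passed and 61 kept their sign, and of the named genes Adk, Fbln5, Egfl8, Car14, Vamp8 and Nid1 still passed. In that split the Pmp22 sums still differed in plate 1 (16987 CPM low, 8883 CPM high) and lay close together in plate 2 (13305 and 13556 CPM). In plate 2, 18 of the 22 cholesterol genes were then lower on the high side, with a median log2 ratio of -0.57 against -1.30 before.

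**Figure D3:**
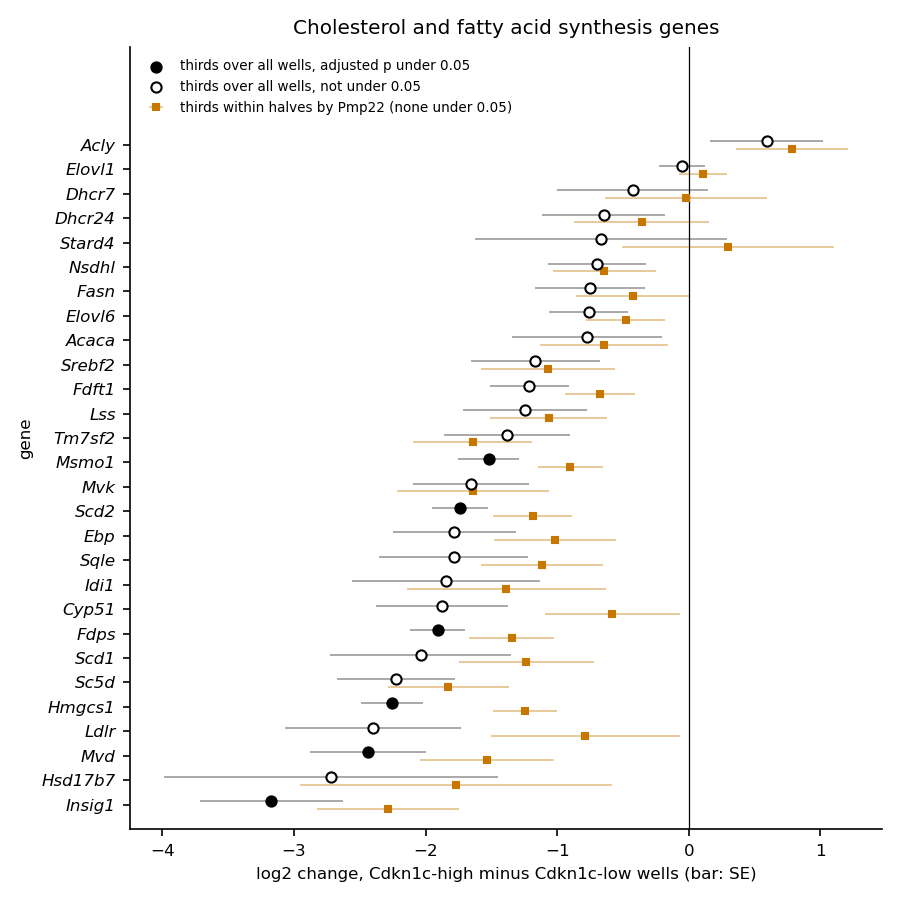
Log2 change between Cdkn1c-high and Cdkn1c-low wells, with bars of 1 SE, of 28 of the cholesterol and fatty acid synthesis genes, in terciles over all intermediate wells (circles, filled where the adjusted p was under 0.05) and in terciles within Pmp22 strata (squares). Of the 28, 6 passed and 27 lay below 0 in the first, and 25 lay below 0 and none passed in the second.

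The promoters of 4 of the lower genes are printed because 6 genes of cholesterol synthesis passed as lower, and these 4 had an entry. They are the 250 bases before the start of each gene in RefSeq (GRCm38.p6), 5′ to 3′ on the strand of the gene. Capitals mark CCAAT boxes on either strand (CCAAT or ATTGG) and, in Hmgcs1, the sterol regulatory element core TCACNCCAC. Hmgcs1 is at chr13:119690101-119690350 (plus), Insig1 at chr5:28071162-28071411 (plus), Mvd at chr8:122443423-122443672 (minus) and Msmo1 at chr8:64733579-64733828 (minus).
Hmgcs1: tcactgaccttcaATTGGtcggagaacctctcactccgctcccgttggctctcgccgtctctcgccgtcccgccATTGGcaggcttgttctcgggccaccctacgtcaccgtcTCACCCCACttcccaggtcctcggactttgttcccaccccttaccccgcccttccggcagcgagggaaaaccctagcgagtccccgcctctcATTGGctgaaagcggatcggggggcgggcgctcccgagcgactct
Insig1: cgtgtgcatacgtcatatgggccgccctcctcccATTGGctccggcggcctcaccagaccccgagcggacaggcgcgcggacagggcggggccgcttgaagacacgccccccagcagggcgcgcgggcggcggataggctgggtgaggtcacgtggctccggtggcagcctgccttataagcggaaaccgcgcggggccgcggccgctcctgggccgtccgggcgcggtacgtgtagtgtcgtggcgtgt
Mvd: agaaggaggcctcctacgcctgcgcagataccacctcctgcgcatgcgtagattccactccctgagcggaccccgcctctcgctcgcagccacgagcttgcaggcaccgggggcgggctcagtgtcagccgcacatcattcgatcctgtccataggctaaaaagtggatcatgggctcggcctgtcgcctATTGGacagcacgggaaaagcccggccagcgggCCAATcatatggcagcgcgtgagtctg
Msmo1: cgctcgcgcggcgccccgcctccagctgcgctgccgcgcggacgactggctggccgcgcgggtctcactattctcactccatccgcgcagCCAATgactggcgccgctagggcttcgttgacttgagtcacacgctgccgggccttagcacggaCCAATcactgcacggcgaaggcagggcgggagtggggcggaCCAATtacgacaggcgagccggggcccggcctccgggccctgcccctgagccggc
A CCAAT box lay in all 15 cholesterol genes that had an entry, and in 37.5% of all 27025 genes with one. The sterol element core was found in 1 of the 15, Hmgcs1, and in 1.22% of all genes. Such matches describe the letters of a window.

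Mbp, the basic protein of compact myelin, was lower as well. It had 24113 and 22411 CPM in low, 26487 and 22303 in middle and 10244 and 15307 CPM in high wells (log2 change -0.996 ± 0.18, adjusted p = 0.0477). Of the 4 compact myelin genes not used to choose wells, 2 passed, both lower, against 0.452% of all genes. Pmp2 and Mal did not pass, with edgeR adjusted p of 0.140 and 0.242. Within Pmp22 strata Mbp did not pass (-0.70 ± 0.21, adjusted p = 0.200). With the replicate block Mbp did not pass either (adjusted p = 0.0712).

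Of 19 genes of non-compact myelin and its junctions tested, 1 passed, against 0.582% of all genes. This was Drp2, a partner of periaxin at the abaxonal membrane. It held 454 and 228 reads in the low sums and none in either high sum, at least 238.5-fold less when 3 reads over the high group are taken as the limit. The low sum of plate 1 alone gave a limit of 363.6-fold and that of plate 2 alone 141.5-fold. These limits cover the counting error of reads only, not the spread between wells. Drp2 did not pass within Pmp22 strata (adjusted p = 0.0705), with Pmp22 below 15000 CPM, or without either high sum or the low sum of plate 1 (adjusted p = 0.0538 to 0.147). Mag, an adhesion protein of the periaxonal membrane, had 655 and 829 CPM in low and 1113 and 1207 CPM in high wells, and its log2 change of 0.53 ± 0.17 did not pass (adjusted p = 0.224). Periaxin itself, Prx, had 1246 and 1566 against 1390 and 1560 CPM (-0.05 ± 0.17, adjusted p = 0.958), and its sign turned in 8 of 23 alternative settings. The median of the list was -0.68, with 15 of 19 changes negative.

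Of 17 myelination transcription factors tested, 0 passed in either direction, where 0.582% of all genes did, and the median was -0.22. At that share a list of this length would seldom hold a call, so a count of 0 does not show that a list was unchanged. Egr2 had 168 and 107 CPM in low and 180 and 212 CPM in high wells (0.36 ± 0.34, adjusted p = 0.751). Pou3f1, the pro-myelinating marker, had 202 and 153 against 158 and 159 CPM (-0.31 ± 0.30, adjusted p = 0.774), and its low and high sums overlapped. Sox10 had 208 and 241 against 162 and 217 CPM. Of 12 inhibitors of myelination and 12 immature markers tested, 0 and 0 passed.

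**Figure D4:**
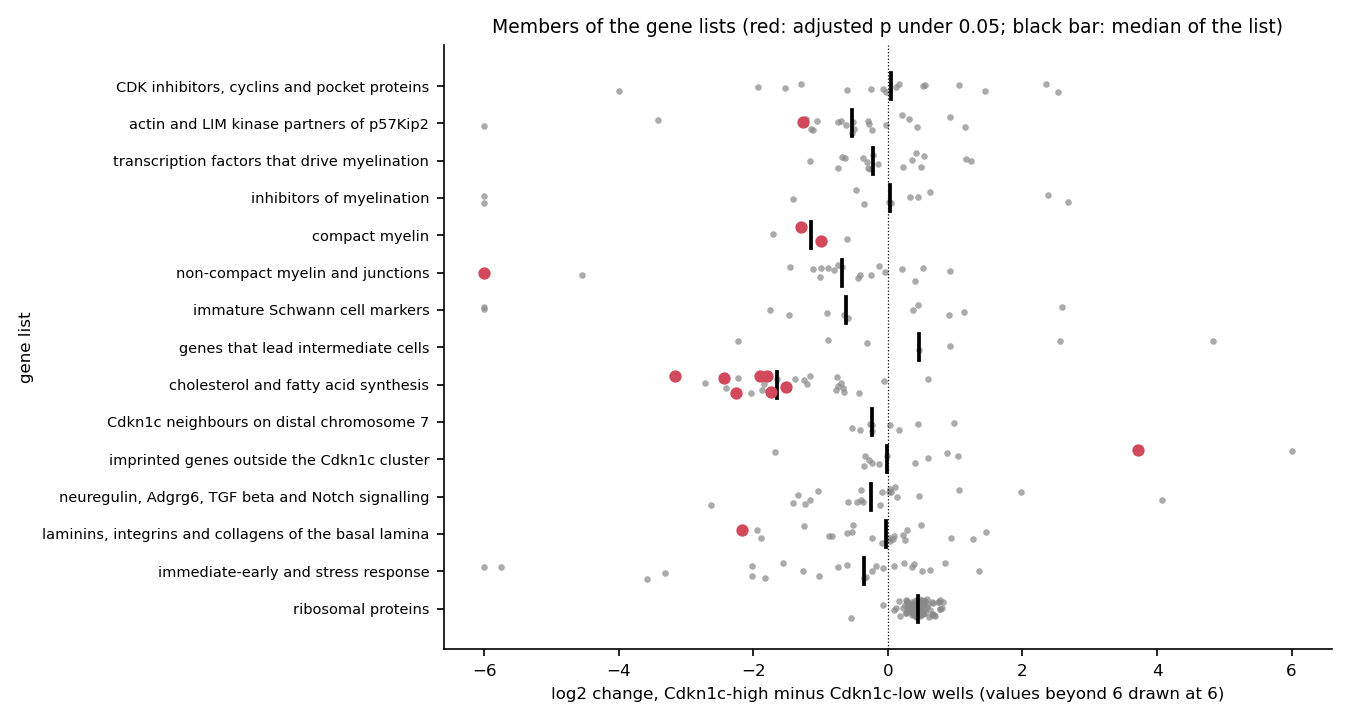
Log2 change between Cdkn1c-high and Cdkn1c-low wells of each tested member of the gene lists, with genes that passed in red and the median of each list as a black bar. The cholesterol and fatty acid list lies farthest below 0, with 7 genes passed, and 79 of the 81 ribosomal protein genes lie above 0, with none passed. Values beyond 6 are drawn at 6.

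Of 16 other tested genes for cyclin-dependent kinase inhibitors, cyclins and pocket proteins, 0 passed, against 0.582% of all genes, with a median of 0.04. Cdkn1a (p21Cip1) had 2366 and 1996 CPM in low and 1639 and 1517 CPM in high wells (-0.60 ± 0.18, adjusted p = 0.185), and Cdkn1b (p27Kip1) had 206 and 103 against 244 and 128 CPM (0.11 ± 0.45, negative in 3 of 23 alternative settings). Cdk6 stood at 2648 and 93.8 against 116 and 82.5 CPM, where 1 well gave 69.5% of the reads of the low sum of plate 1. Neighbours on distal chromosome 7 gave 0 of 9 tested, with Cd81 at 1345 and 1550 against 1481 and 1197 CPM. Of 13 imprinted genes elsewhere, 1 passed, Mest. Kcnq1ot1, H19, Meg3, Rian, Mirg and Peg13 had no entry under these names in the counts and could not be tested.

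Actg1, gamma-actin (chr11:120345690-120348542), had 1779 and 2012 CPM in low, 1425 and 1288 in middle and 797 and 931 CPM in high wells (log2 change -1.26 ± 0.15, adjusted p = 0.00711). It was the 1 of 22 actin and LIM kinase partners that passed, against 0.582% of all genes. Of the 22, 17 were negative with a median of -0.53. Actb had 8055 and 8020 CPM in low and 5654 and 5790 CPM in high wells (-0.62 ± 0.13, adjusted p = 0.0708), and cofilin-1, Cfl1, had 1224 and 1237 against 1094 and 1100 CPM (-0.29 ± 0.14, adjusted p = 0.456). Outside that list, the microtubule destabiliser Stmn1 went from 1005 and 733 to 298 and 227 CPM (-1.87 ± 0.27, adjusted p = 0.0219), Tuba1a from 3212 and 3912 to 1659 and 2014 CPM (-1.08 ± 0.15, adjusted p = 0.0191), and creatine kinase Ckb from 1294 and 1378 to 377 and 532 CPM (-1.68 ± 0.19, adjusted p = 0.00524). Stmn1, Tuba1a and Ckb were picked here after their values were seen. Ckb and Stmn1 also passed within Pmp22 strata (adjusted p = 0.00992 and 0.0349), and Actg1 and Tuba1a did not (0.0784 and 0.0970).

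Of the remaining lists, laminins, integrins and collagens had 1 call in 22, Nid1, which fell from 322 and 330 to 62.8 and 95.9 CPM (-2.17 ± 0.29, adjusted p = 0.0143). Signalling genes of the neuregulin, Adgrg6, TGF beta and Notch pathways had 0 of 22, and immediate-early and stress genes 0 of 25. The share over all genes was 0.582%. Genes known to lead the intermediate cells had 0 of 7 besides Cdkn1c. They were listed on these samples and are no independent evidence. Ntm, a neural adhesion protein among them, had 0.316 and 14.1 CPM in low and 264 and 161 CPM in high wells (4.82 ± 1.23, adjusted p = 0.137). The 4 Y-linked genes had 0 calls.

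Over single wells, the 5 genes whose level ranked most like Cdkn1c in both plates, of 3495 with at least 50 CPM, were Serpine2 (Spearman's rho 0.608 in 79 wells of plate 1 and 0.594 in 70 of plate 2), Rps3a1 (0.604 and 0.550), Rps18 (0.441 and 0.643), Nkd1 (0.440 and 0.574) and Rpl8 (0.439 and 0.448). Of these, Serpine2 passed the test between terciles. Among the genes that ranked most opposite to it were Cryab (-0.481 and -0.454), Atxn1 (-0.526 and -0.418) and the tetraspanin gene Cd9 (-0.396 and -0.592). The wells of a plate share animals and a library preparation, so these are descriptions. Nkd1, an inhibitor of Wnt signalling, had 133 and 72.4 CPM in low and 413 and 404 CPM in high wells (adjusted p = 0.0773). Ribosomal protein genes, looked at after seeing these ranks, were higher in sign in 79 of 81, with a median log2 change of 0.45 and 0 passed. They took 5.14% and 5.71% of the reads in low, 7.99% and 8.21% in high wells, and 6.39% and 7.20% in Ncmap-negative wells.

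The Cdkn1c-high wells were set beside the other noncycling wells, the 228 with Ncmap under 10 CPM (Ncmap-negative) and the 221 with Ncmap and with Pmp22 at or above the limit (Pmp22-high), in contrasts added after seeing the data. In the first contrast 1.24% of all genes passed and in the second 1.64%, both with the same Cdkn1c-high sums. The genes given here were picked on those sums, so the p-values of these contrasts are no separate evidence for them. Serpine2 had 1138 and 796 CPM in Ncmap-negative and 879 and 642 CPM in Pmp22-high wells, below the 2275 and 2414 CPM of the Cdkn1c-high wells (log2 change 1.35 against each, adjusted p = 0.0200 and 0.0175). Ckb had 1166 and 1123 CPM and 914 and 832 CPM there, above the 377 and 532 CPM of the Cdkn1c-high wells (adjusted p = 0.00941 and 0.0114). Actg1 (adjusted p = 0.0171 and 0.0269), Nid1 (0.00973 and 0.0135) and Stmn1 (0.0402 and 0.0135) were likewise lower in Cdkn1c-high wells than in both. The 2 other groups were not divided by Cdkn1c here. When the Ncmap-negative wells were divided in the same way, their Cdkn1c-high tercile had 2092 and 1309 CPM of Serpine2. That tercile had 1039 and 868 CPM of Ckb, 1308 and 1591 of Actg1, 205 and 302 of Nid1 and 549 and 510 of Stmn1. Hmgcs1 was at 51.7 and 64.6 CPM in Ncmap-negative wells and at 726 and 727 CPM in Pmp22-high wells. For each of the 7 lipid synthesis genes that passed, the difference from Ncmap-negative wells did not (adjusted p = 0.294 to 1) and the difference from Pmp22-high wells did (0.000166 to 0.0430).

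**Figure D5:**
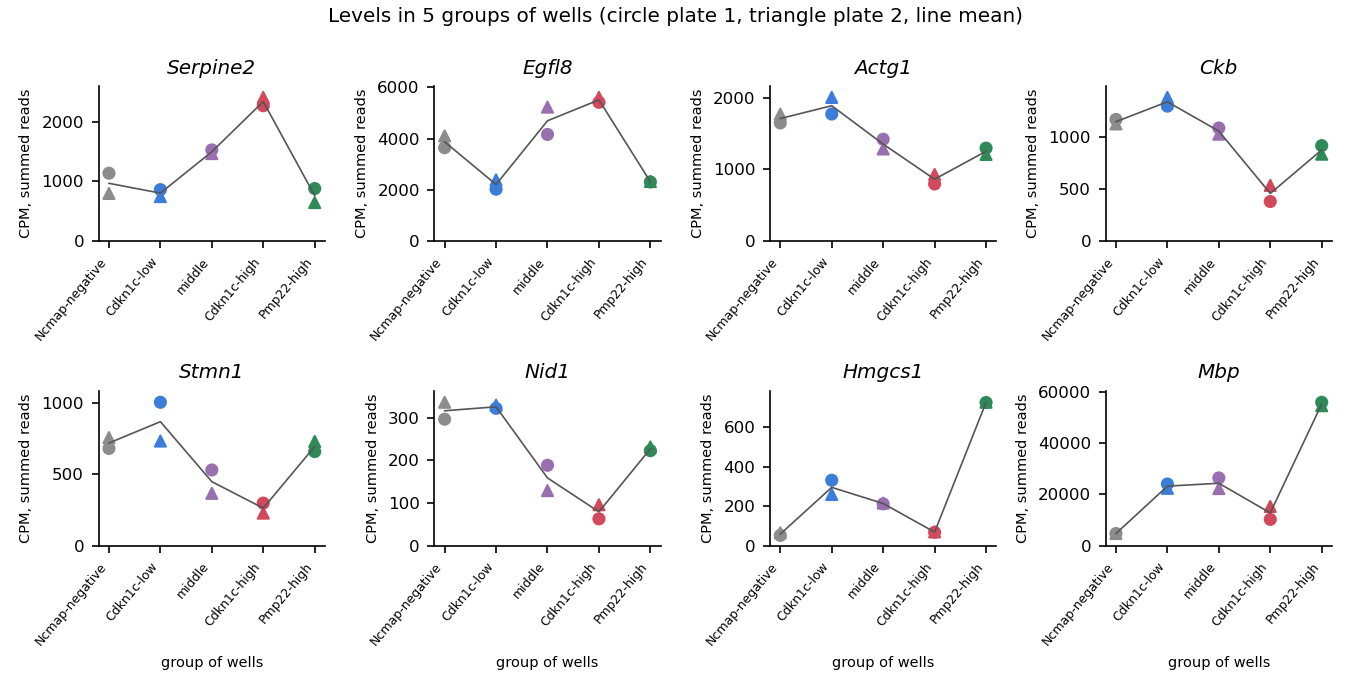
CPM of the summed reads of 8 genes in Ncmap-negative, Cdkn1c-low, middle, Cdkn1c-high and Pmp22-high wells (circle plate 1, triangle plate 2, line through the means). Serpine2 and Egfl8 peak and Actg1, Ckb, Stmn1 and Nid1 are lowest in the Cdkn1c-high wells, while Hmgcs1 and Mbp are highest in the Pmp22-high wells.

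Whether the same genes went with Cdkn1c in Ncmap-negative wells was tested as an interaction, with those wells divided in the same way. The difference between the 2 changes passed for 1 gene of 10832, Cdkn1c, which chose the wells, while 666 genes had an unadjusted p under 0.05 in edgeR, so no other gene was shown to behave differently in the 2 kinds of well. In the Ncmap-negative wells the changes with Cdkn1c were 1.61 ± 0.28 for Serpine2, 3.99 ± 1.24 for Mest and 3.24 ± 0.47 for Fbln5, beside 1.41, 3.71 and 2.36 in the intermediate wells, and these 3 did not pass among the Ncmap-negative wells alone (edgeR adjusted p = 0.145, 0.721 and 0.0635). For Hmgcs1 it was -0.23 ± 0.45 beside -2.25, with a difference that did not pass (adjusted p = 0.592). Cdkn1a was 1.78 ± 0.21 there beside -0.60, with an adjusted p of 0.0726 for the difference. It was 1 of 7 genes that passed within the Ncmap-negative wells (edgeR adjusted p = 0.0254), Cdkn1c included.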

How the data were processed

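Single Schwann cells were sorted into plates and sequenced with Smart-Seq2. The authors deposited raw read counts per gene and well. The submitters' processing notes name bcl2fastq, STAR 2.6.1c, featureCounts and GRCm38.p5, while the methods text names other builds, so names and coordinates come from a GRCm38 annotation that matched 25587 of 25700 identifiers. The other 113 held 0.0916% of reads. No strand setting is given in the sources used here, so overlapping genes cannot be told apart.

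Wells were divided by the rule in the report and their deposited counts summed per plate and tercile. The sums were tested with edgeR 4.0.16 in R 4.3.3 (TMM scaling, filterByExpr on the 4 high and low sums, 10 sums in the fit, 5 residual degrees of freedom, common dispersion 0.654), with DESeq2 1.42.0 as an alternative. An SE is the log2 change divided by the square root of F. CPM values are unscaled. In the main fit each p-value rests on a spread between plates that all 10 sums share, not on that of the high and low sums alone. The Ncmap-negative and Pmp22-high sums held 106 to 122 wells each, the high and low sums 24 to 27. Intermediate wells held 10131 to 2149800 reads (median 517142), and deep wells weigh more in the sums. Without molecular identifiers, limits cover counting error only. No doublet caller was run.

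Named genes were up to 12 a direction with the largest log2 change among those that passed, had 50 CPM or more on average and went the same way in both plates, with the members of the gene lists. Plates pair the sums, since both sides of a plate come from the same pool of animals. Deviations from the group means correlated at 0.0631 between high and low sums, 0.124 between high and middle and 0.0318 between low and middle, over 1936 genes. The members and lists were chosen with earlier results of these data known. Certain genes are not reported here.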

Additional observations from a re-analysis of the deposited data

Results flagged for a closer look

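For Tnfaip8l1 and Mvd the change with Cdkn1c in Ncmap-negative wells was opposite in sign in both plates to that in intermediate wells. Tnfaip8l1 was nearly flat there, with 181 and 138 CPM in low and 177 and 136 CPM in high Ncmap-negative wells. Mvd was low there, with 15.9 and 30.1 against 42.2 and 53.1 CPM. The log2 change there was -0.0364 for Tnfaip8l1 and 1.06 for Mvd, beside 1.65 and -2.44 in intermediate wells. The test of the difference itself, the interaction in edgeR, passed for neither gene (adjusted p = 0.531 and 0.366).

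Cdkn1c reads were also present in wells outside the comparison. The 57 cycling wells had 233.5 CPM in their summed reads (251.4 and 208 in plates 1 and 2), with a read in 41 of them. The 105 wells with under 1500 detected genes, corner wells apart, had 619.2 CPM (665 and 24.97), with a read in 27 of them and a median of 0 per well.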

How the results depend on the processing

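Of the 63 genes called, DESeq2 made it 701, fits on 4 and on 6 sums 1 each, the replicate block 36, quartiles 103, terciles within strata of Pmp22 23 (23 also with the replicate block), Pmp22 below 15000 CPM 37, leaving out plate columns 8 and 16 26, and terciles within strata of Ncmap 21. Leaving out 1 sum gave 6 to 364. Of the 13 list members called, DESeq2 made it 57, the fits on 4 and 6 sums 0 each, terciles within strata of Pmp22 2 (3 with the replicate block), Pmp22 below 15000 CPM 3, no columns 8 and 16 7, and strata of Ncmap 7, with 0 to 35 on leaving out 1 sum. The 1 call of the interaction became 0 when wells were split at the median and 0 with the replicate block. The Ncmap strata and the Pmp22 strata with the block were chosen after seeing the data. The cause of these shifts was not tested.

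All 21 genes of the naming rule kept their direction in the 23 alternatives. They were chosen for large changes of the same sign in both plates, and the alternatives reuse reads of the same plates. Their kept signs are therefore no separate evidence. Prx turned positive with total reads alone (0.0692), without the high sum of plate 1 (0.03), without the low sum of plate 2 (0.0449), in quartiles (0.0051), within strata of Pmp22 (0.25, 0.24 with the replicate block), with Ncmap from 30 CPM (0.0061) and with Pmp22 below 15000 CPM (0.24). Pou3f1 turned positive without the low sum of plate 1 (0.0063) and within strata of detected genes (0.0214). Cdkn1b turned negative without the high sum of plate 1 (-0.43), without the low sum of plate 2 (-0.34) and within strata of Ncmap (-0.12). On leaving out 1 sum, Prx ranged from -0.1334 to 0.0449, Pou3f1 from -0.5507 to 0.0063 and Cdkn1b from -0.4286 to 0.8107.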
